A study of Mus musculus with 4 samples.

Results

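The genes described here are 44 that carry out DNA replication, chosen by name to cover origin recognition, licensing, the helicase, priming, the replicative polymerases, the sliding clamp and its loader, binding of exposed strands, flap removal and ligation, and nucleotide supply. They were read through every probe set (a group of short probes for 1 transcript) whose only gene symbol in the array annotation is on that list, which gave 97 of the 45037 probe sets that are not array controls, for 44 of the 18193 genes named in this way. Of these, 81 probe sets of 43 genes had a mean log2 level of at least 5 over the arrays and were tested, and Tyms alone had none. The samples were testes of 129 strain mice at 2 days post partum (dpp), grown as organ cultures for 24 h, 2 with WIN 18,446 at 1 µM and 2 with its vehicle DMSO. All were cultured in DMEM with fetal bovine serum, and RNA was read on Affymetrix 430 2.0 mouse arrays, 1 per sample. WIN 18,446 is a known inhibitor of the aldehyde dehydrogenases that make retinoic acid. The samples are numbered, but no label ties a number to its own animal or culture. The p-values therefore cover sample-to-sample spread that may be no more than technical, and the number of arrays limits the precision.

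Replication starts at origins, where the origin recognition complex, Cdc6 and Cdt1 load the ring of Mcm2 to Mcm7 onto DNA in G1, a step called licensing. In S phase Mcm10, Cdc45 and the GINS complex turn the loaded rings into working helicases, DNA polymerase alpha with primase lays down primers, polymerases delta and epsilon extend them with the clamp Pcna, and Fen1 and Lig1 join the finished pieces. Many of these genes are transcribed under E2F control as cells pass from G1 into S phase, and in the newborn testis Sertoli cells divide actively while germ cells resume division in the first days after birth.

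Many replication genes were higher in testes cultured with WIN 18,446, and in 8 of 10 steps of the process at least 1 gene rose, the exceptions being origin recognition and single-strand binding. By the probe set of highest mean for each gene, 19 of the 43 tested genes rose (44.2%), 0 fell and 24 were not called, against 2.94% of all 10970 genes tested that were called higher and 3.46% that were called lower. The median log2 difference, WIN 18,446 minus vehicle, was 0.61 over the 43 genes, a 1.52-fold difference, and -0.02 over all genes tested. Cdc6, the licensing factor, and Mcm10, which helps start the helicase, had the largest differences, both 2.7-fold, and the core origin subunits Orc2 to Orc5 had the smallest, from 1.08-fold to 1.14-fold. At the probe set of highest mean, both WIN 18,446 arrays lay above both vehicle arrays in all 43 genes, a pattern seen in 24.8% of all genes tested. The opposite pattern held for 31.8% of all genes and 0 of the 43. A gene is called at a Benjamini-Hochberg adjusted p under 0.05 in limma over all 20895 probe sets tested. With any 1 array left out, limma called fewer of the 43, and without either vehicle array it called none. The median log2 difference then lay between 0.53 without vehicle array 1 and 0.70 without vehicle array 2. Without a level filter limma also called 0, with 38 of 44 genes and 5250 of all 45037 probe sets at an unadjusted p under 0.05. Without a variance trend it called 0, with 35 of 43 genes and 4227 of all 20895 probe sets at that level. In these comparisons members are counted by gene and the background by probe set, which are unlike units. As reported, 37 of the 43 genes had an unadjusted p under 0.05 in limma, against 2746 of all 10970 genes tested. In tissue RNA, more cells in S phase and more replication transcript per cell cannot be told apart.

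**Figure D1:**
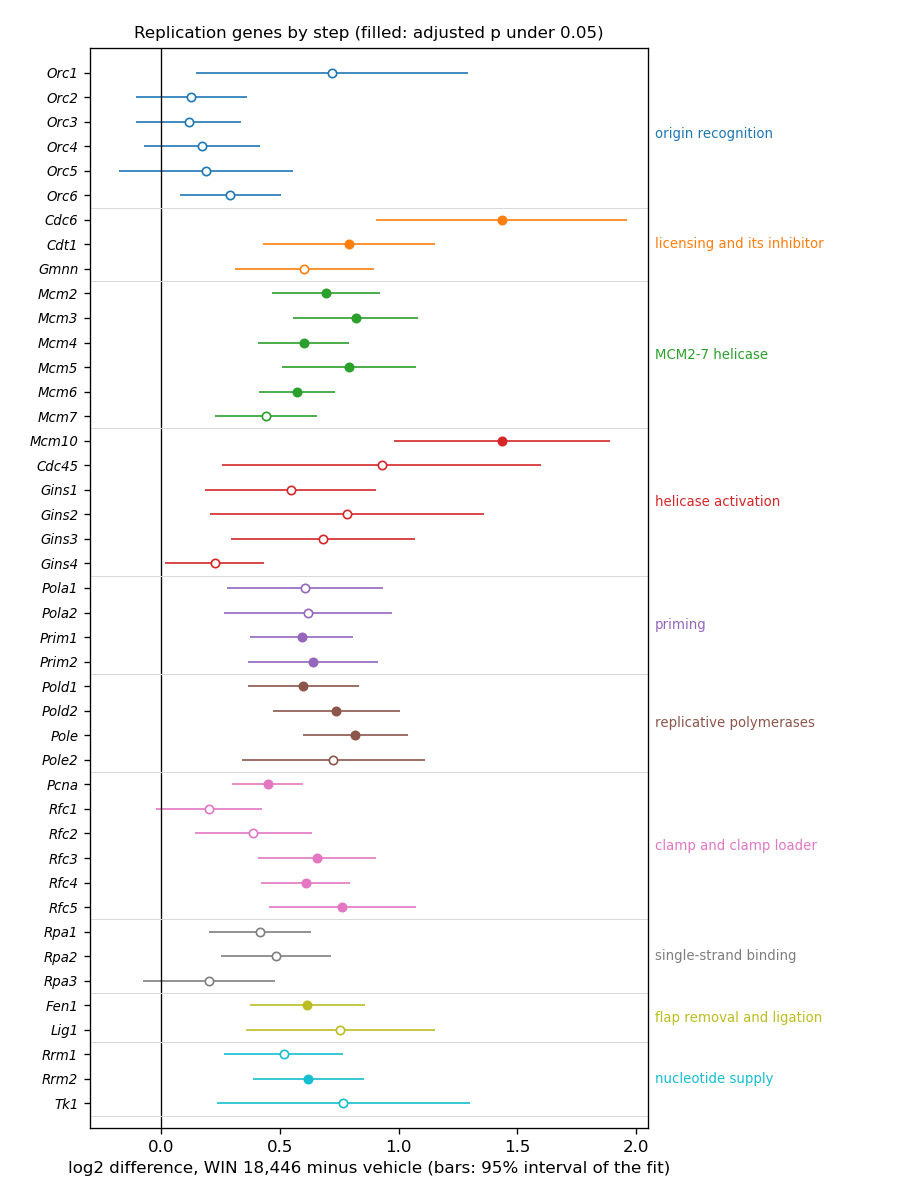
Log2 difference (WIN 18,446 minus vehicle, log2 units) of the 43 tested replication genes, grouped by step; bars are 95% intervals of the limma fit, and filled points have an adjusted p under 0.05. All points lie right of 0, from 0.12 to 1.43, and the origin recognition genes lie nearest to 0 as a group.

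Promoter sequences were compared because the members moved together. RefSeq promoters (GRCm38.p6, 250 bases before the annotated start and 50 after) were held for 36 of the 44 genes, and not for Gmnn, Mcm4, Gins1, Gins2, Gins4, Prim2, Pole and Rfc2. The E2F core was searched as TTGGCGC, or as TTGCCGC, or as TTCGCGC, or as TTCCCGC, on both strands, and matches may overlap. It stood in 23 of the 36 members (63.9%), in 10.9% of the 27025 genes of the promoter table and in 20.5% of the 8940 of them tested on the array. The core was in 11 of 16 genes that rose and in 12 of 19 that were tested and not called. With 1 more T before the core, 14 of 36 members matched (38.9%), against 2.60% of all genes of the table and 5.11% of those tested. CCAAT, in either orientation, was in 23 of 36 members (63.9%), in 41.1% of all genes of the table and in 43.3% of those tested. It was in 10 of 16 genes that rose and in 13 of 19 that were tested and not called. A match is a description of these letters and not a shown binding site. The stretches below lie before the start and are printed on the gene's own strand, with core matches in capitals. Mcm5 (chr8:75109330-75109381, + strand), Mcm6 (chr1:128359727-128359829, - strand) and Pola1 (chrX:93632255-93632339, - strand) are shown for holding 3 or more matches there, Cdc6 (chr11:98907998-98908034, + strand) as 1 of the 2 genes of largest difference, and Orc1 (chr4:108579412-108579448, + strand) because its difference was the largest of the origin recognition genes.
Mcm5: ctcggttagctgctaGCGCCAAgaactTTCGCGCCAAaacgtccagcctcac
Mcm6: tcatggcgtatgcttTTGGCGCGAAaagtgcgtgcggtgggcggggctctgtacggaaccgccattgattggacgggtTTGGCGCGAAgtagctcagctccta
Pola1: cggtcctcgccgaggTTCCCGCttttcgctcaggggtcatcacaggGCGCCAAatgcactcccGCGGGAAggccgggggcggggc
Cdc6: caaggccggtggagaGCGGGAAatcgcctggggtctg
Orc1: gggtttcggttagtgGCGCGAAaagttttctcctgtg
In Mcm6 the capitals show the same run of overlapping cores at 2 places, and in Mcm5 overlapping cores follow a separate match. Cdc6 and Orc1 hold 1 match each in the bases before the start. Mcm10, the other gene of largest difference, had 0 core matches in its window, which says only that these letters are not there.

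The origin recognition complex, which marks origins, had the smallest median difference of the 10 steps. Of its 6 subunit genes 0 were called in limma, with a median log2 difference of 0.18. Orc1 and Orc6, 2 of the 6, had an unadjusted p under 0.05, as had 2746 of all 10970 genes tested. Orc6 read 12.91 and 13.08 log2 units with WIN 18,446, against 12.68 and 12.73 with vehicle (log2 difference 0.29, SE 0.08, adjusted p = 0.13 in limma). Orc1, the subunit known in mammals to vary with the cell cycle, read 9.07 and 8.79 with WIN 18,446, against 7.99 and 8.43 with vehicle, a 1.65-fold difference (95% interval 0.15 to 1.29 log2 units, adjusted p = 0.152). For both genes the WIN 18,446 arrays were the higher pair, and for Orc1 the vehicle arrays stood well apart from each other. Orc5 read 11.12 and 11.11 with WIN 18,446, against 11.10 and 10.75 with vehicle, so that vehicle array 1 nearly met the WIN 18,446 arrays. The log2 differences of Orc2, Orc3, Orc4 and Orc5 were 0.13, 0.12, 0.17 and 0.19, and the upper ends of their 95% intervals lay between 0.33 and 0.55. Orc3 read 12.28 and 12.39 with WIN 18,446, against 12.28 and 12.16 with vehicle, and WIN 18,446 array 1 was level with vehicle array 1. One of its other probe sets had a difference below 0 (-0.16, adjusted p = 0.588 in limma).

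Licensing factors rose. Cdc6, the ATPase that joins the origin complex to load the helicase, read 11.07 and 11.23 with WIN 18,446, against 9.44 and 9.99 with vehicle (log2 difference 1.43, SE 0.21, adjusted p = 0.0305 in limma). Cdt1, which brings the Mcm ring to Cdc6, read 13.14 and 13.35 with WIN 18,446, against 12.28 and 12.63 with vehicle (0.79, SE 0.14, adjusted p = 0.0464). In both genes the lowest WIN 18,446 array was above the highest vehicle array by more than the vehicle arrays differed. Geminin (Gmnn), the inhibitor of Cdt1 that blocks relicensing in S phase and G2, read 12.76 and 12.88 with WIN 18,446, against 12.07 and 12.35 with vehicle, a 1.52-fold difference that was not called (adjusted p = 0.0539). The inhibitor was thus higher on the same arrays as its target. A further probe set of Cdt1 gave a log2 difference of 0.77 (adjusted p = 0.0544).

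Genes of the helicase ring were higher together. Mcm2, Mcm3, Mcm4, Mcm5 and Mcm6 rose by 0.57 to 0.82 log2 units, and Mcm7 was 1.36-fold higher and not called by its brightest probe set. Mcm2 read 13.00 and 12.98 with WIN 18,446, against 12.19 and 12.39 with vehicle (log2 difference 0.69, SE 0.09, adjusted p = 0.0253 in limma). Mcm6 read 13.40 and 13.34 with WIN 18,446, against 12.79 and 12.81 with vehicle (0.57, SE 0.06, adjusted p = 0.0192). At these brightest probe sets both pairs were tight, and the gap between the groups was several times the spread within either. A second probe set of Mcm6 was less tight. It read 12.92 and 13.51 with WIN 18,446, against 12.73 and 12.85 with vehicle (0.42, adjusted p = 0.294 in limma). Mcm7 read 14.00 and 14.16 with WIN 18,446, against 13.56 and 13.71 with vehicle (0.44, SE 0.08, adjusted p = 0.0532), and another of its probe sets was called (0.43, adjusted p = 0.0288). Mcm3 (0.82), Mcm5 (0.79) and Mcm4 (0.60) had adjusted p-values of 0.0243, 0.0291 and 0.0242.

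One probe set of Mcm7 stood apart from the other 3. It read 10.46 and 12.60 with WIN 18,446, against 11.70 and 11.99 with vehicle, so that WIN 18,446 array 1 was the lowest and array 2 the highest of the 4. Its log2 difference was -0.32 (adjusted p = 0.826 in limma), and without WIN 18,446 array 2 it was called lower (-1.39, adjusted p = 0.0261). The other 3 tested probe sets of Mcm7 differed by 0.41 to 0.44. In a dim probe set of Orc2, WIN 18,446 array 1 was likewise the lowest and array 2 the highest. It read 7.39 and 8.85 with WIN 18,446, against 7.99 and 8.01 with vehicle (0.12, adjusted p = 0.917 in limma). WIN 18,446 array 1 also read low in the 5' control probe set of 18S ribosomal RNA (6.55 there, 8.67 on WIN 18,446 array 2, and 8.12 and 8.17 on the vehicle arrays). It read high in the B1 repeat control (13.52, against 12.73 to 12.93 on the other arrays). Its 3' minus 5' log2 differences for the Gapdh and Actb controls, 0.83 and 1.16, lay within those of the other arrays. The part of array quality in the Mcm7 reading was not tested.

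Among the genes that turn loaded rings into active helicases, Mcm10 rose and the other 5 were higher without being called. Mcm10 read 10.23 and 10.20 with WIN 18,446, against 8.58 and 8.97 with vehicle (log2 difference 1.43, SE 0.18, adjusted p = 0.0239 in limma), and its second probe set gave 1.86 (adjusted p = 0.0171). Cdc45, a subunit of the active helicase, read 9.81 and 10.35 with WIN 18,446, against 8.89 and 9.40 with vehicle, a 1.9-fold difference (adjusted p = 0.125). Here the arrays within each group differed by more than WIN 18,446 array 1 lay above vehicle array 2. The GINS subunits Gins2, Gins3 and Gins1 differed by 0.78, 0.68 and 0.55, with adjusted p-values of 0.132, 0.0759 and 0.103. Gins4, the remaining subunit of that complex, read 11.90 and 11.85 with WIN 18,446, against 11.68 and 11.62 with vehicle (0.23, adjusted p = 0.201). The 4 GINS genes thus ran from 1.17-fold to 1.72-fold.

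Both primase genes and 3 of 4 replicative polymerase genes rose, by similar amounts. Prim1, the catalytic primase subunit, read 13.70 and 13.84 with WIN 18,446, against 13.10 and 13.25 with vehicle (log2 difference 0.59, SE 0.08, adjusted p = 0.0302 in limma), and its partner Prim2 rose by 0.64 (adjusted p = 0.0413). The polymerase alpha genes Pola1 and Pola2 had differences of the same size, 0.60 and 0.62, and were not called (adjusted p = 0.068 and 0.0772). Pola2 read 10.64 and 10.59 with WIN 18,446, against 9.86 and 10.13 with vehicle, and its vehicle arrays differed more than its WIN 18,446 arrays. Pole, the catalytic subunit of the leading-strand polymerase epsilon, read 12.00 and 12.02 with WIN 18,446, against 11.14 and 11.23 with vehicle (0.82, SE 0.09, adjusted p = 0.0176), the smallest adjusted p of the 43 genes. Pold1 and Pold2, subunits of the lagging-strand polymerase delta, rose by 0.60 and 0.74 (adjusted p = 0.0343 and 0.0301). Pole2 read 10.81 and 11.07 with WIN 18,446, against 10.09 and 10.33 with vehicle (0.72, adjusted p = 0.0655). Over these 8 genes the differences spanned only 0.59 to 0.82 log2 units.

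The clamp and most of its loader rose. Pcna, the ring that holds polymerases on DNA, read 14.61 and 14.67 with WIN 18,446, against 14.14 and 14.24 with vehicle (log2 difference 0.45, SE 0.06, adjusted p = 0.0257 in limma). Rfc4 read 13.02 and 13.01 with WIN 18,446, against 12.35 and 12.47 with vehicle (0.61, SE 0.07, adjusted p = 0.0224). Rfc3 and Rfc5, small subunits of the same loader, rose by 0.66 and 0.76 (adjusted p = 0.0327 and 0.0374). A second probe set of Rfc3 overlapped between the groups and was not called (0.42, adjusted p = 0.421 in limma). Rfc1, the large subunit that is particular to the loader of Pcna, read 12.69 and 12.62 with WIN 18,446, against 12.37 and 12.54 with vehicle (0.20, 95% interval -0.02 to 0.42, adjusted p = 0.266). Its groups were separate by less than the vehicle arrays differed. Rfc2 was 1.31-fold higher by its brightest probe set and not called (adjusted p = 0.0932), and another of its probe sets was called (0.58, adjusted p = 0.0395).

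Replication protein A, which coats exposed single strands in replication and repair, had 0 of its 3 genes called in limma. An unadjusted p under 0.05 held for 2 of the 3, against 2746 of all 10970 genes tested. Rpa2 read 12.18 and 12.31 with WIN 18,446, against 11.71 and 11.82 with vehicle (log2 difference 0.48, adjusted p = 0.0524 in limma), and Rpa1 differed by 0.42 (adjusted p = 0.0608). Rpa3 read 12.25 and 12.51 with WIN 18,446, against 12.19 and 12.16 with vehicle (0.20, 95% interval -0.08 to 0.48, adjusted p = 0.363), where WIN 18,446 array 1 lay close to the vehicle arrays. Fen1, the nuclease that removes the flaps of lagging-strand pieces, read 13.95 and 14.14 with WIN 18,446, against 13.35 and 13.51 with vehicle, and rose (0.62, SE 0.10, adjusted p = 0.0352). Lig1, which seals those pieces, read 11.56 and 11.46 with WIN 18,446, against 10.56 and 10.95 with vehicle (0.75, SE 0.16, adjusted p = 0.0644). Lig1 had the larger difference and the larger SE, and its vehicle arrays were further apart than those of Fen1.

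For nucleotide supply, Rrm2, the subunit of ribonucleotide reductase that limits its activity in S phase, rose. It read 13.72 and 13.57 with WIN 18,446, against 12.94 and 13.12 with vehicle (log2 difference 0.62, SE 0.09, adjusted p = 0.0317 in limma). Rrm1, the large subunit, differed by 0.52 (adjusted p = 0.0539). Tk1, the S phase thymidine kinase of the salvage route, read 11.13 and 11.49 with WIN 18,446, against 10.31 and 10.78 with vehicle, a 1.7-fold difference that was not called (adjusted p = 0.115). All 3 were higher on both WIN 18,446 arrays. Tyms, thymidylate synthase, could not be judged here: its brightest probe set read 4.57 and 5.17 with WIN 18,446, against 3.88 and 4.0 with vehicle, under the level filter, and with no filter its adjusted p was 0.406.

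**Figure D2:**
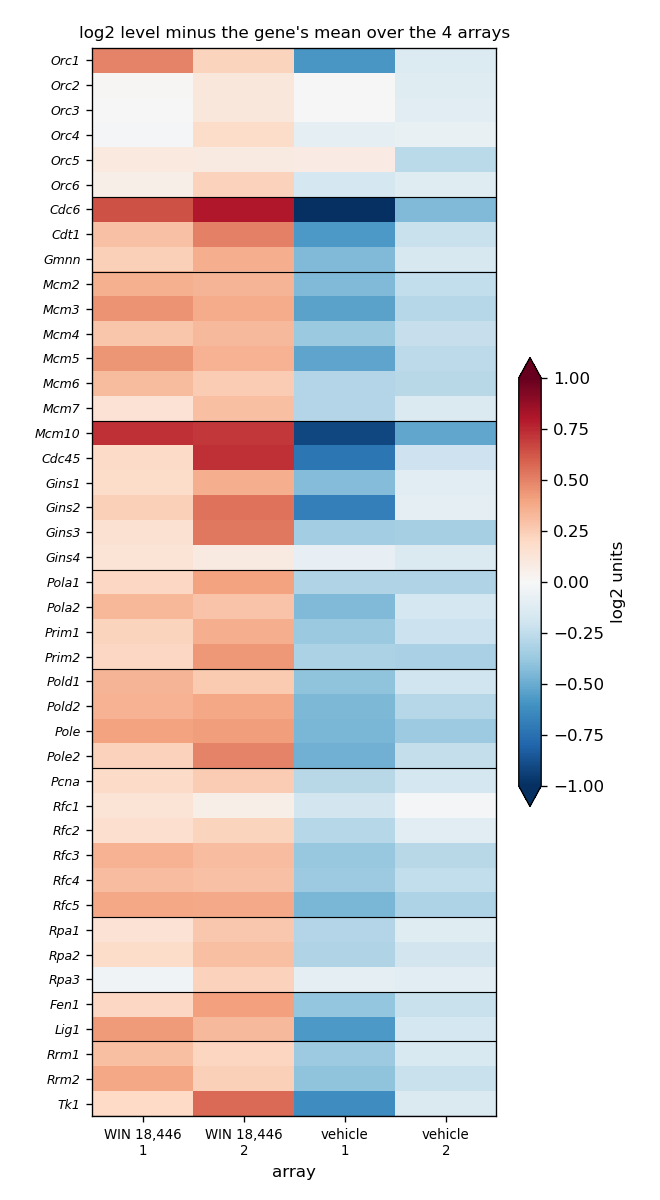
Log2 level of each tested replication gene minus its mean over the 4 arrays (colour, log2 units), with arrays as columns and genes in rows by step. Every row is redder on the WIN 18,446 arrays, and vehicle array 1 is the bluer of the vehicle arrays in 37 of 43 genes.

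The vehicle arrays themselves differed along this set of genes. Vehicle array 2 read higher than vehicle array 1 in 37 of 43 genes, by a median of 0.17 log2 units. Over all genes tested it did so in 4729 of 10970, with a median of -0.02. WIN 18,446 array 2 read higher than array 1 in 26 of 43, by a median of 0.06, and in 6013 of all 10970 genes tested, by a median of 0.02. The mean log2 level over the 43 genes was 12.11 and 12.19 on the WIN 18,446 arrays, against 11.47 and 11.64 on the vehicle arrays. The gap between the groups was therefore larger than the gap between the vehicle arrays. The median difference was 0.63 without WIN 18,446 array 1, 0.58 without WIN 18,446 array 2, 0.53 without vehicle array 1 and 0.70 without vehicle array 2.

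**Figure D3:**
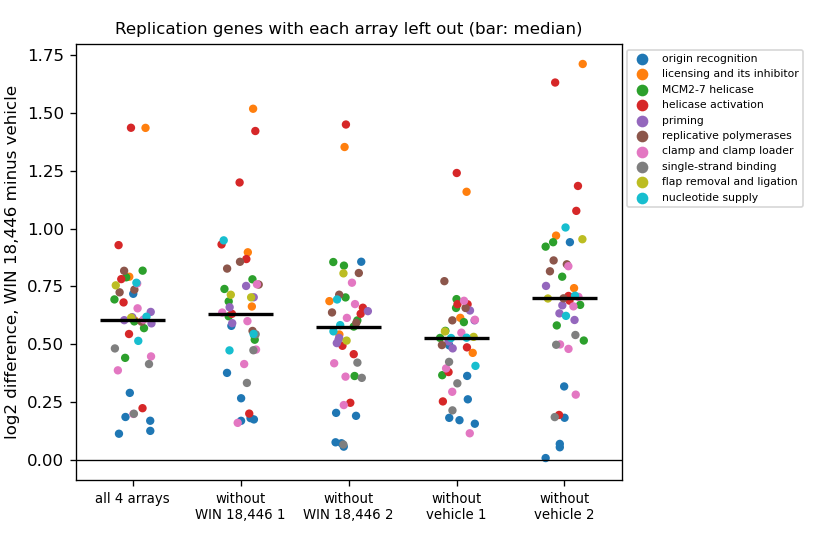
Log2 difference (WIN 18,446 minus vehicle, log2 units) of the 43 tested replication genes with all arrays and with each array left out; points are genes coloured by step and black bars are medians. The medians run from 0.53 without vehicle array 1 to 0.70 without vehicle array 2.

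Probe sets of the same gene mostly moved together but gave different sizes. Of the 81 tested probe sets of the members, 29 were called higher and 0 lower, against 2.27% of all probe sets tested that were called higher and 2.91% called lower, and 79 of 81 had a positive difference. Both WIN 18,446 arrays lay above both vehicle arrays in 72 of the 81, against 23.8% of all probe sets tested. In 8 the groups overlapped, and in 1, a probe set of Orc3, both WIN 18,446 arrays lay below. Of 26 genes with at least 2 tested probe sets, 16 had at least 1 called, 5 had all of them called, and 2, Orc3 and Mcm7, held opposite signs. In 13 of the 26 the brightest probe set gave the smallest difference. For Rrm2 the differences were 0.62 at its brightest probe set, 0.93 at the next and 1.34 at the dimmest, and the last read 8.47 and 8.99 with WIN 18,446, against 7.14 and 7.64 with vehicle. For Mcm5 they were 0.79 and 1.13. The size of a gene's difference therefore depended on the probe set read. Of the 43 probe sets used to represent genes, 10 have names ending in _s_at or _x_at, which mark probes that can bind other transcripts, and without such probe sets limma called 15 of 43 genes higher and 42 had a positive difference, Mcm7 being the exception.

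**Figure D4:**
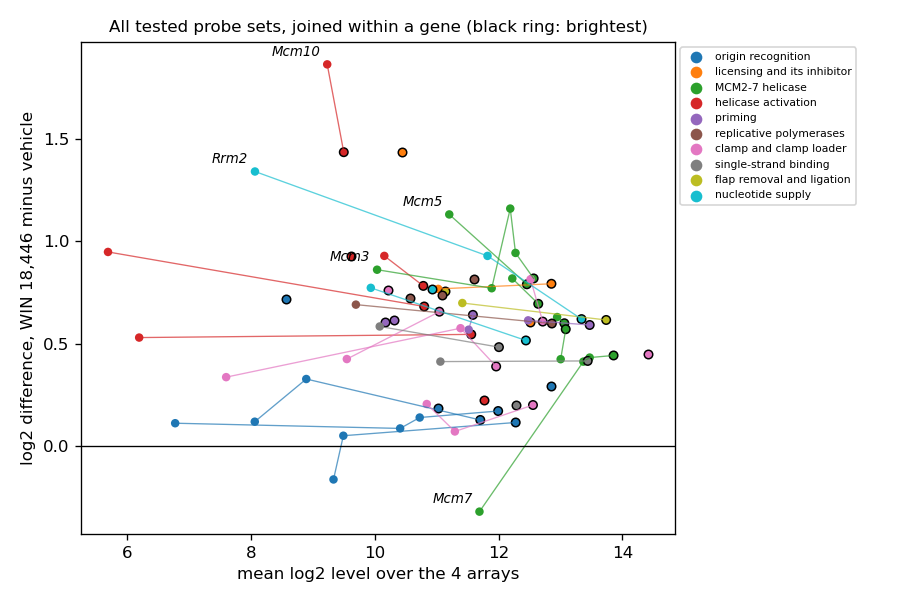
Log2 difference (WIN 18,446 minus vehicle) against mean log2 level over the 4 arrays for the 81 tested probe sets, coloured by step, joined within a gene and ringed in black where brightest. Dimmer probe sets of Mcm10, Rrm2 and Mcm5 lie above their brighter partners, and the dimmest of Mcm7 lies below 0.

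Other replication genes, listed beside the members, gave smaller shares of calls with the same direction. Of 29 tested genes of the wider replication machinery 10 rose, 0 fell and 19 were not called, with a median log2 difference of 0.44 beside 2.94% of all genes called higher. Tipin, a fork protection factor, rose by 0.93 (adjusted p = 0.0202 in limma), Dscc1 of an alternative clamp loader by 0.89 (0.0283), Topbp1, needed for helicase activation, by 0.53 (0.0294), and Atad5, which unloads Pcna, by 0.86 (0.0311). Of 10 genes of chromatin assembly and maintenance methylation 3 rose and 0 fell, with a median of 0.71. These were Asf1b (0.99, adjusted p = 0.0253) and Chaf1b (1.40, 0.0397), both histone chaperones for new chromatin, and Mms22l (1.51, 0.0289), which acts at damaged forks. Among 11 further nucleotide supply genes Shmt1 and Dut rose by 0.64 and 0.82 (adjusted p = 0.0354 and 0.0358), 0 fell and 9 were not called. Not every gene of these lists was higher: 5 of the 29, 1 of the 10 and 3 of the 11 had a difference below 0, and 0 of these were called. The lowest, named after their values were seen, were Tk2, the mitochondrial thymidine kinase, at -0.64 (adjusted p = 0.143 in limma) and Dctd, dCMP deaminase, at -0.59 (adjusted p = 0.153), and for both the WIN 18,446 arrays lay below both vehicle arrays.

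Regulators of S phase entry and genes of mitosis differed on the same arrays. Of 30 regulators of the step from G1 to S, 7 rose, 0 fell and 23 were not called, with a median of 0.24. Differences were above 0 in 22 of the 30 and below 0 in 8. Both WIN 18,446 arrays lay above both vehicle arrays in 18 and below them in 4, against 24.8% and 31.8% of all genes tested. The E2F family members E2f7 (2.23, adjusted p = 0.0173 in limma), E2f2 (1.71, 0.0235), E2f1 (1.14, 0.0242) and E2f6 (0.54, 0.0256) were those of smallest p. The other E2F genes, named after their values were seen, were not called: E2f8, E2f3, E2f5 and E2f4 differed by 1.18, 0.25, 0.02 and -0.01. E2f1 and E2f2 are known as activators, and E2f6 and E2f7 as repressors of the same kind of promoter. Of 17 mitosis genes 9 rose and 0 fell, with a median of 0.97, led by Cenpf (1.36, adjusted p = 0.0195), Kif23 (0.98, 0.0199), Cdc20 (0.76, 0.0208) and Aurka (1.20, 0.0286). As a background for both lists, 2.94% of all genes tested were called higher and 3.46% lower. Vehicle array 2 read higher than vehicle array 1 in 17 of these 17 genes, by a median of 0.42, and in 4729 of all 10970 genes tested. Of 10 housekeeping genes 0 were called in limma (lowest adjusted p 0.13), with a median of 0.04. An unadjusted p under 0.05 was seen in 2 of the 10 and in 2746 of all 10970 genes tested.

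**Figure D5:**
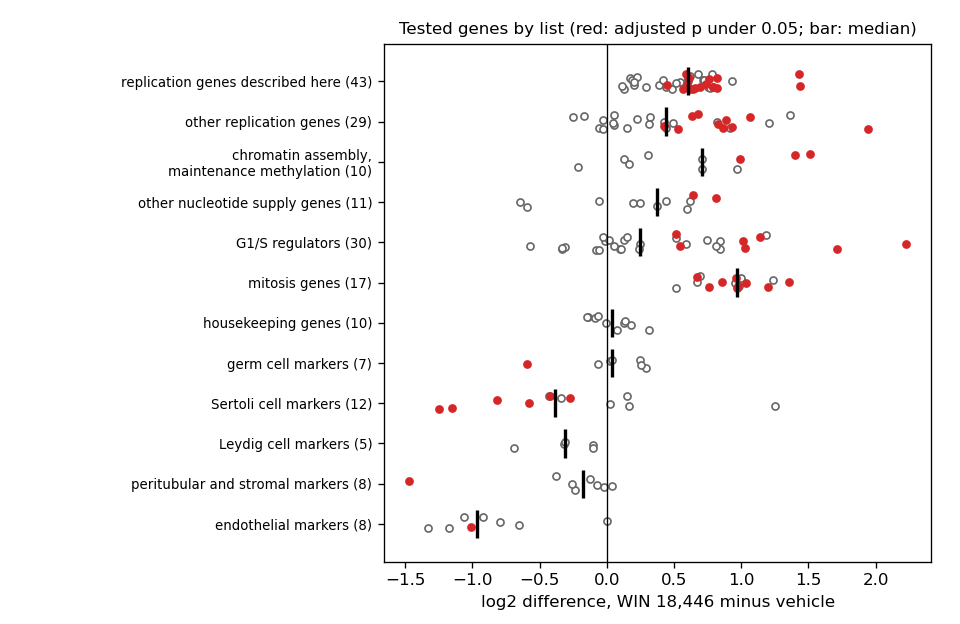
Log2 difference (WIN 18,446 minus vehicle, log2 units) of the tested genes by list, with the number of genes in brackets; red points have an adjusted p under 0.05 and black bars are medians. The replication genes described here and the mitosis genes lie right of 0 (medians 0.61 and 0.97). The other replication, chromatin, nucleotide supply and G1/S lists have points on both sides of 0. The housekeeping and germ cell medians lie near 0, and the endothelial list left of it (median -0.96).

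Markers of the cell types of the testis were present and differed in part. As a background for the counts below, 2.94% of all 10970 genes tested were called higher and 3.46% lower. Of 7 tested germ cell markers 0 rose and Sall4 fell (-0.60, adjusted p = 0.0157 in limma), with list means of 11.20 and 11.19 with WIN 18,446, against 11.15 and 11.18 with vehicle, and Kit, Dppa3 and Tdrd1 lay under the level filter. Among the 7, 5 differences were above 0 and 2 below. Of 12 Sertoli cell markers 6 fell, among them Cldn11 (-1.25, adjusted p = 0.00781) and Sox9 (-1.15, 0.0121), with list means of 12.62 and 12.55 with WIN 18,446, against 12.89 and 12.90 with vehicle. Differences were above 0 in 4 of the 12 and below 0 in 8. Amh, picked out after its value was seen, was the largest of the 4, at 1.25 (adjusted p = 0.0575). Of 5 Leydig cell markers 0 were called in limma (lowest adjusted p 0.195), with list means of 11.84 and 11.62 with WIN 18,446, against 12.21 and 11.86 with vehicle. An unadjusted p under 0.05 was seen in 2 of these 5, against 2746 of all 10970 genes tested. All 5 differences were below 0, as were 6013 of all 10970. Of 8 peritubular and stromal markers Des fell (-1.47, adjusted p = 0.0349), with list means of 12.21 and 12.08 with WIN 18,446, against 12.41 and 12.52 with vehicle. Differences were above 0 in 1 of the 8 and below 0 in 7. Of 8 endothelial markers Robo4 fell (-1.01, adjusted p = 0.0435) and the list means (Pecam1, Kdr and Tie1 untested) were 7.79 and 7.69 with WIN 18,446, against 8.39 and 8.83 with vehicle. All 8 differences were below 0, with Eng at -0.0006. In 7 of the 8 both WIN 18,446 arrays lay below both vehicle arrays, as in 31.8% of all genes tested. In limma 7 of the 8 had an unadjusted p under 0.05, against 2746 of all 10970 genes tested. Hbb-b2, a globin gene and the 1 erythroid marker tested, read 8.62 and 9.45 with WIN 18,446, against 10.53 and 10.38 with vehicle, with both WIN 18,446 arrays below both vehicle arrays, and was not called (-1.42, adjusted p = 0.0618 in limma). The macrophage markers C1qb and Mrc1 differed by -0.19 and 0.10, with overlapping groups, and were not called. Of the markers not tested, Csf1r, Cx3cr1, Fcgr1, C1qa, Hba-a1 and Alas2 read near the array floor. The part of cell makeup in the replication gene differences was not tested.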

How the data were processed

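The deposited table holds log2 levels per probe set and array, normalized between arrays by the authors; per the submitters' processing notes RMA and GCRMA were used, without saying which made the table, and that the scale is log2 was read from the values. Genes were named from GEO's annotation of the array, only where a probe set has 1 symbol, and the 43 tested members were found by symbol in the RefSeq gene table of GRCm38.p6. The 64 control probe sets were left out, and the 20895 probe sets with a mean of at least 5 were fitted with limma 3.58.1 in R 4.3.3 (lmFit, eBayes with a variance trend, 2 residual and 3.19 prior degrees of freedom), two-sided, with Benjamini-Hochberg adjustment over all of them and a threshold of 0.05. Each gene is represented by its tested probe set of highest mean. Values by array are given for the members of smallest and largest p in each step, for Mcm2, Cdc6, Cdt1, Gmnn, Pcna and Rrm2, and for members whose probe sets differ in sign; other lists are named by up to 4 genes of smallest p. Orc1, Cdc45 and the genes of other probe sets were added after their values were seen. The fit was also run on simulated data with errors drawn independently for each probe set. That run cannot speak to shifts shared by many genes on 1 array. The members, lists and tests were chosen with earlier results of these data known. Means over lists are of log2 levels. Alternatives changed the level filter, normalization, variance model, arrays, probe sets and threshold; leaving out _s_at and _x_at probe sets and the promoter share over genes tested were chosen after seeing the data.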

Additional observations from a re-analysis of the deposited data

How the results depend on the processing

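The median log2 difference of the replication genes lay between 0.53 and 0.70 with each array left out, and between 0.57 and 0.64 under the other alternatives that recompute it. The counts called by limma were less steady. Member genes called higher, 19 as reported, were 0 without a level filter, 0 without a variance trend, 29 with 1 probe set per gene, 30 at an adjusted p under 0.10 and 0 to 13 with each array left out. Member probe sets called higher, 29 as reported, were 0 without a level filter, 1 without a variance trend, 49 at an adjusted p under 0.10 and 0 to 19 with each array left out, and those called lower were 0 to 1 with each array left out. Genes of the other lists called higher, 31 as reported, were 0 without a level filter, 4 without a variance trend, 53 with 1 probe set per gene, 55 at an adjusted p under 0.10 (1 was then lower) and 0 to 14 with each array left out. Over all probe sets, 475 higher and 608 lower became 0 and 3 without a level filter, 127 and 245 without a variance trend, 1002 and 1214 at an adjusted p under 0.10, and 0 to 480 and 0 to 918 with each array left out. The motif count of 23 became 14 with 1 more T required. When an array is left out, the spread comes from the group that still has 2 arrays and is taken to hold for the lone one, and the causes of these changes were not tested. All 19 genes called as reported were also called with a mean of at least 7, a filter on 2 of 4 arrays, quantile normalization again, robust moderation and 1 probe set per gene, and 18 of them with equal array medians.

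The replicate numbers are shared by the groups, but with 2 pairs they cannot be shown to pair the samples: across the tested probe sets the deviations of same-numbered arrays from their group means had a Pearson r of 0.01. With the replicate number as a block, 30 member genes and 49 member probe sets were called higher, and 49 genes of the other lists were higher and 1 lower.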
